A study of Saccharomyces cerevisiae with 12 samples.

Results

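The comparison described here is the capture of RNA by ADP-ribosylcyclase (ADPRC) against mock capture in budding yeast grown in the rich medium YEPD. Its members are all genes whose mean normalized count over the 6 YEPD libraries was at least 10, which holds for 5547 of the 6607 distinct identifiers in the table. The remaining 1060 were not tested, and 277 identifiers were at 0 in all 6 YEPD libraries.

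Both groups were total RNA of the haploid strain BY4742, an alpha-mating-type laboratory strain with deletions at HIS3, LEU2, LYS2 and URA3, from cells in mid-log growth in YEPD with dextrose. The ADPRC group (3 libraries) was incubated with the enzyme and the alkyne 4-pentynol. The mock group (3 libraries) had the alkyne without the enzyme, and then went through the same click chemistry with biotin azide and the same streptavidin beads. Ribosomal RNA was not depleted and RNA was not fragmented, per the labels' protocols, and another 6 libraries came from cells in minimal medium. Nothing in the labels says that the 3 libraries of a group were separate cultures. Unless stated, the p-values and standard errors below rest on the spread within groups, pooled over all 12 libraries, those in minimal medium included. This spread may be technical.

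As background, some RNAs begin with the metabolite NAD in place of the usual methylguanosine cap, because RNA polymerase can start a transcript with NAD where it would otherwise place adenosine. ADPRC swaps the nicotinamide of such an end for an alkyne, to which biotin can be clicked, so that RNA on the beads after ADPRC is measured against RNA that reached the beads without the enzyme. In yeast the cap is removed by enzymes that include the Nudix hydrolase Npy1 and the DXO-family proteins Rai1 and Dxo1, and NAD-capped RNA has been reported from nuclear and from mitochondrial transcription.

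The 6 libraries held 12051316 to 13958188 recovered reads (ADPRC) and 11700161 to 13820148 (mock), so that 3 reads, the limit that a count of 0 allows, were worth 2.18 to 3.39 normalized counts in ADPRC libraries and 2.81 to 3.87 in mock libraries. Such limits cover counting error only. LEU2, LYS2 and URA3 were listed at 0 in all 6 libraries. HIS3 was at 119 to 238 normalized counts in ADPRC libraries and 90.7 to 122 in mock libraries, and as background the deletion at this gene is partial. The 8 alpha-cell genes summed to 8238 to 12865 normalized counts in ADPRC and 7986 to 8494 in mock libraries. The 7 a-cell genes summed to 81.5 to 119 in ADPRC and 105 to 119 in mock libraries. The alpha-cell sum was thus far above the a-cell sum in every library, as the labelled strain's mating type has it. HMLALPHA1 and MATALPHA1 had equal values in every library, so the alpha-cell sum may count the same reads more than once.

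One ADPRC library stood apart. Values below are given for the ADPRC libraries in the order unnumbered, replicate 2 and replicate 3 (the column name of the first carries no replicate number) and for the mock libraries in the order 1, 2 and 3. Replicate 2 lay at 38.6 on the first principal component, which held 66.4% of the variance, against 1.69 and -2.69 for the other ADPRC libraries and -14.4, -12.7 and -10.5 for mock. Pearson's r of log2 values across genes was 0.959 and 0.952 between replicate 2 and the other ADPRC libraries and 0.991 between those 2. Open reading frames within ribosomal DNA took 65.9% of the reads of replicate 2, 79.4% and 80.5% in the other ADPRC libraries and 79.9%, 80.5% and 82.0% in mock. The log2 change from the mock mean had an SD across genes of 0.325, 0.684 and 0.297 in the 3 ADPRC libraries, and the deviation of each mock library from the other mocks had an SD of 0.241, 0.222 and 0.254. Results are therefore given with and without replicate 2. Fits without it keep 2 ADPRC libraries in YEPD. Since it was left out because its values stood apart, p-values of those fits may be too small.

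**Figure D1:**
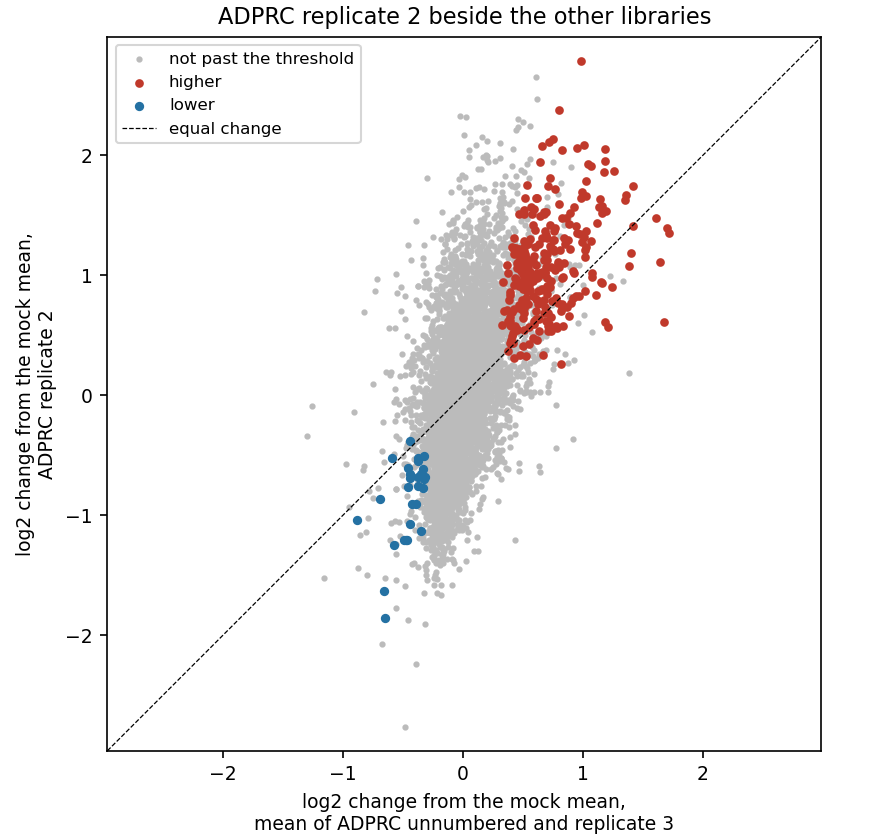
Log2 change of each of the 5547 genes from the mock mean in ADPRC replicate 2 (vertical) against the mean change of the unnumbered library and replicate 3 (horizontal), with the genes that passed the threshold in colour. The cloud is steeper than the dashed line of equal change: the SD across genes was 0.684 in replicate 2, against 0.325 and 0.297 in the other ADPRC libraries.

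With limma and an adjusted p under 0.05, 268 genes (4.83% of those tested) were higher after ADPRC than after mock capture and 29 (0.523%) were lower. The median log2 change was 0.78 among the higher genes and -0.52 among the lower genes, and 63 genes were more than 2-fold higher, against 1 more than 2-fold lower. Without replicate 2 the counts were 338 higher (6.09%) and 72 lower (1.3%), and 248 of the 268 and 22 of the 29 remained called. The higher genes changed by a median of 0.71, 1.04 and 0.58 on the log2 scale in the 3 ADPRC libraries, and replicate 2 was the highest of these in 200 of the 268. In the lower genes the medians were -0.39, -0.76 and -0.45, and replicate 2 was the lowest in 25 of 29. The 3 ADPRC values lay above all 3 mock values in 840 of the genes tested (15.1%) and below them in 939 (16.9%). All but 1 of the 268 higher genes were among the first, the exception being YFR018C at 177, 127 and 199 normalized counts after ADPRC and 89.8, 100 and 132 after mock, whose call was also lost without several single libraries.

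Single libraries moved the counts. Without the unnumbered library 278 genes were higher and 89 lower, and without ADPRC replicate 3 these were 612 and 492. Leaving out mock replicate 1, 2 or 3 gave 107, 137 or 187 higher genes and 0, 0 or 3 lower genes. A fit of the 6 YEPD libraries alone, in place of all 12 libraries sharing 1 estimate of the spread, called 50 higher and 0 lower. The quasi-likelihood test of edgeR on the recovered reads called all 268 higher and all 29 lower genes.

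**Figure D2:**
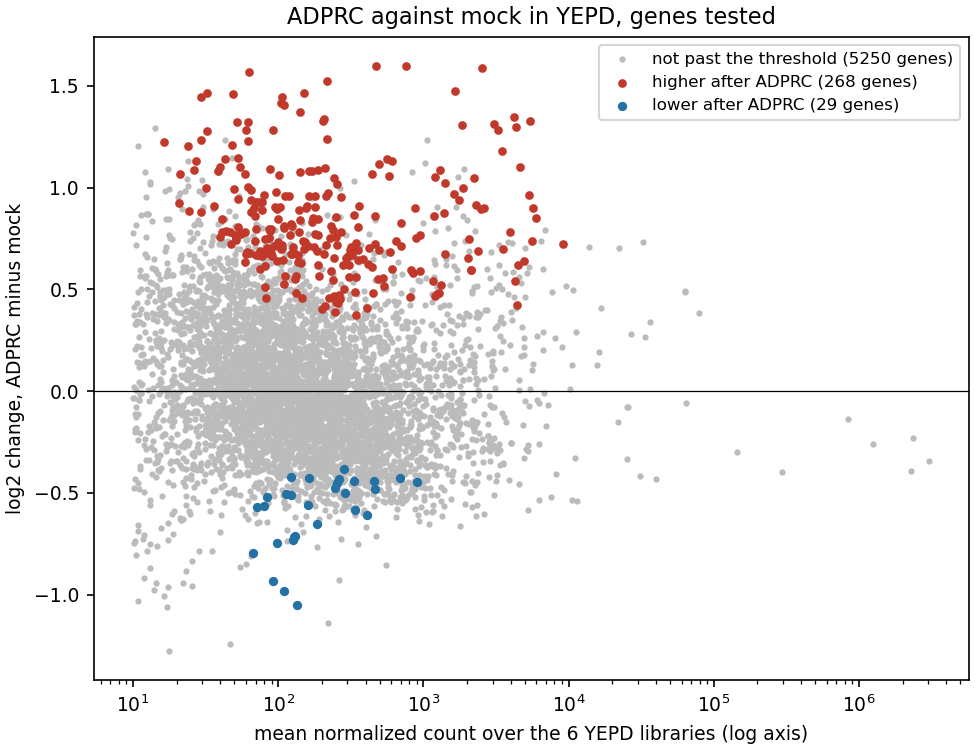
Log2 change, ADPRC minus mock, of each gene tested against its mean normalized count over the 6 YEPD libraries (log axis), with the 268 higher genes in red and the 29 lower genes in blue. Genes of low and of high count are found among the higher genes, while the lower genes have means of at most 910 normalized counts.

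The genes that rose most were a pair encoded in mitochondrial DNA. COX2, the gene of a catalytic core subunit of cytochrome c oxidase, had 707, 616 and 818 normalized counts after ADPRC and 257, 190 and 261 after mock capture. OLI1, which encodes the ring-forming subunit c of ATP synthase, had 1241, 958 and 1235 after ADPRC and 334, 359 and 440 after mock. Neither gene's groups overlapped, and for both genes replicate 2 was the lowest of the ADPRC libraries. COX2 was higher by 1.60 ± 0.17 (SE, n = 3 per group) on the log2 scale (limma, adjusted p = 0.000115), and OLI1 by 1.60 ± 0.15 (limma, adjusted p = 4.49e-05). COX2 overlaps the frame Q0255 in the RefSeq annotation, and whether counting used strand is not given in the sources used here.

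Other mitochondrially encoded genes lay on the opposite side. SCEI, an intron-encoded homing endonuclease within the gene of the large mitochondrial ribosomal RNA, had 108, 48.7 and 120 normalized counts after ADPRC and 195, 161 and 182 after mock. COB, which encodes cytochrome b, had 77.9, 45.1 and 103 after ADPRC and 161, 116 and 152 after mock. All ADPRC values of both genes were below all mock values, as the rule for the largest decreases required, with replicate 2 lowest. SCEI fell by 1.05 ± 0.26 (limma, adjusted p = 0.0345) and COB fell by 0.98 ± 0.26 (limma, adjusted p = 0.0404) on the log2 scale. COX1, COX3 and ATP6, which encode further subunits of the oxidase and of ATP synthase, did not pass the threshold: their log2 changes were -0.85, -0.93 and -1.14 (limma, adjusted p = 0.0589, 0.0807 and 0.0511), again with all ADPRC values below all mock values. The table lists 18 mitochondrially encoded genes, of which 7 were tested. Of these 2 were higher and 2 lower, and without replicate 2 these counts were 2 and 5. With the trend with coding length removed they were 2 and 0. The introns of COB hold the frames BI2, BI3 and BI4, and SCEI overlaps its host ribosomal RNA gene, so their reads may not be separable.

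**Figure D3:**
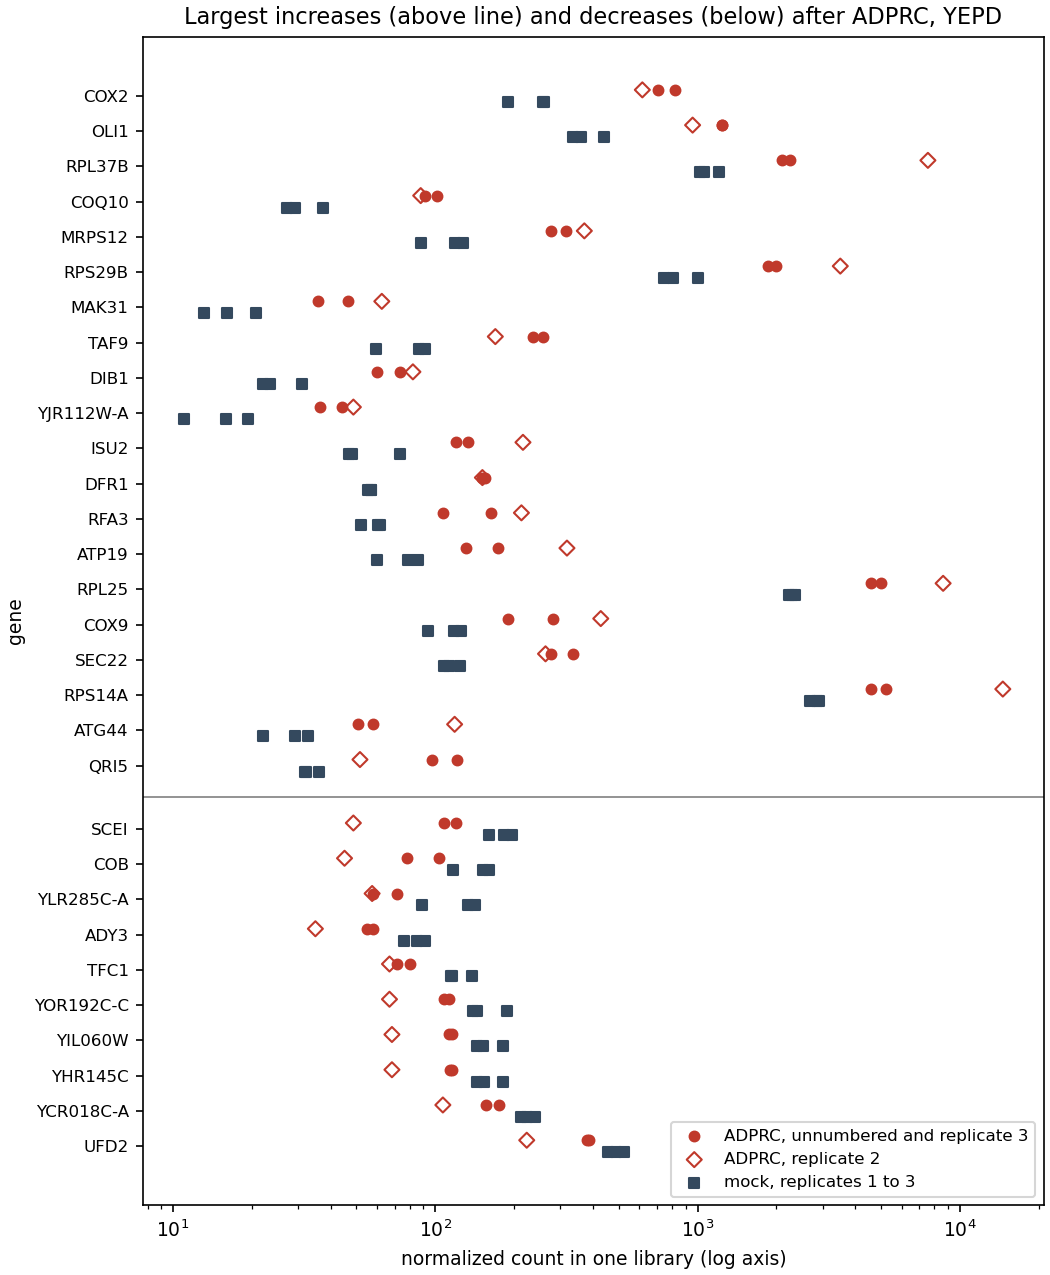
Normalized count in each YEPD library (log axis) of the 20 genes with the largest increase and the 10 with the largest decrease, with ADPRC libraries in red (replicate 2 as open diamonds) above the mock libraries as dark squares in each row. No gene's groups overlap, as the rule that chose these genes required. Replicate 2 lies far right of the other ADPRC libraries for RPL37B and RPS14A, and left of them for COX2, OLI1, TAF9 and QRI5.

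The 20 largest increases also held nuclear genes of mitochondrial proteins, grouped here by known role after their values were seen. The share of such genes among all genes tested was not counted. COQ10, a coenzyme Q-binding protein needed for respiration, had 102, 88.0 and 91.6 normalized counts after ADPRC and 37.4, 29.1 and 27.1 after mock. MRPS12, a protein of the small mitochondrial ribosomal subunit, had 315, 370 and 277 after ADPRC and 87.9, 127 and 119 after mock. For both genes replicate 2 lay near the other ADPRC libraries. COQ10 rose by 1.57 ± 0.17 (limma, adjusted p = 0.000148) and MRPS12 by 1.52 ± 0.14 (limma, adjusted p = 4.49e-05).

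ISU2, a scaffold on which mitochondria build iron-sulfur clusters, had 134, 216 and 120 normalized counts after ADPRC and 46.8, 48.2 and 73.6 after mock. ATP19, subunit k of ATP synthase, had 173, 318 and 131 after ADPRC and 59.9, 86.3 and 78.8 after mock. COX9, a small subunit of cytochrome c oxidase, had 280, 428 and 189 after ADPRC and 93.5, 125 and 118 after mock. In all of these replicate 2 was the highest library. That the groups lay apart, also without it, follows from the rule that chose the largest increases. Their log2 changes were 1.44 ± 0.21 for ISU2, 1.37 ± 0.25 for ATP19 and 1.34 ± 0.24 for COX9 (limma, adjusted p = 0.00132, 0.00524 and 0.00538). ATG44, which encodes a protein that divides mitochondria, and QRI5, an inner-membrane protein that acts on COX1 messenger RNA, also rose, by 1.32 ± 0.26 and 1.32 ± 0.27 (limma, adjusted p = 0.00947 and 0.0112). QRI5 had 121, 51.6 and 97.3 normalized counts after ADPRC and 31.8, 36.1 and 32.3 after mock, so that here replicate 2 was the closest to mock. Its adjusted p was 0.0604 without mock replicate 1.

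Cytosolic ribosomal protein genes made up another 4 of the 20. Among the 5547 genes tested were 56 of the small and 81 of the large subunit. RPL25 had 5027, 8639 and 4583 normalized counts after ADPRC and 2363, 2236 and 2283 after mock. RPS29B had 1860, 3502 and 1996 after ADPRC and 745, 805 and 1007 after mock. RPL25 rose by 1.35 ± 0.19 and RPS29B by 1.48 ± 0.19 (limma, adjusted p = 0.000858 and 0.000589), and without replicate 2 the changes were 1.07 and 1.19. RPL37B had 2098, 7559 and 2243 after ADPRC and 1023, 1058 and 1204 after mock. RPS14A had 5226, 14591 and 4570 after ADPRC and 2677, 2846 and 2903 after mock. For RPL37B and RPS14A replicate 2 was far above the other ADPRC libraries, which themselves lay above every mock library. RPL37B rose by 1.59 ± 0.34 and RPS14A by 1.33 ± 0.30 (limma, adjusted p = 0.0159 and 0.0204). Without replicate 2 the changes were smaller, 0.99 and 0.80. Their limma adjusted p-values of 3.44e-08 and 1.24e-08 rest on 2 ADPRC libraries, after the outlying one was left out. RPL37B missed the threshold without mock replicate 1 or 2 (adjusted p = 0.081 and 0.0684), and RPS14A without mock replicate 1, 2 or 3 (adjusted p = 0.0932, 0.0797 and 0.0648).

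The remaining large increases spanned several nuclear and cytosolic functions. DFR1, dihydrofolate reductase, was the most even of them, with 150, 151 and 155 normalized counts after ADPRC and 57.1, 55.2 and 56.8 after mock. SEC22, a SNARE protein of transport between endoplasmic reticulum and Golgi, had 276, 263 and 336 after ADPRC and 124, 108 and 112 after mock. DFR1 rose by 1.42 ± 0.13 and SEC22 by 1.33 ± 0.12 (limma, adjusted p = 4.49e-05 for each), and in neither did replicate 2 stand apart. TAF9, shared by the transcription complexes TFIID and SAGA, had 257, 169 and 235 after ADPRC and 87.0, 59.2 and 91.7 after mock, a rise of 1.47 ± 0.20. DIB1, a protein of the spliceosome's tri-snRNP, rose by 1.46 ± 0.21, and MAK31, a subunit of the NatC protein acetyltransferase, by 1.47 ± 0.24. RFA3, the smallest subunit of the single-strand DNA-binding protein RPA, rose by 1.40 ± 0.19, and YJR112W-A by 1.45 ± 0.24. Adjusted p-values of these 5 genes in limma ranged from 0.000858 for TAF9 and RFA3 to 0.00319 for YJR112W-A. In the fit of YEPD libraries alone MAK31, ATP19, COX9, ATG44, QRI5, RPL37B and RPS14A of the 20 largest increases missed the threshold.

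The 10 largest decreases were smaller and depended on single libraries. TFC1, a subunit of the RNA polymerase III factor TFIIIC, had 79.8, 66.9 and 71.3 normalized counts after ADPRC and 116, 114 and 138 after mock. YLR285C-A had 57.7, 57.5 and 71.3 after ADPRC and 142, 133 and 89.1 after mock. In both, replicate 2 was close to the other ADPRC libraries. TFC1 fell by 0.75 ± 0.17 and YLR285C-A by 0.94 ± 0.21 on the log2 scale (limma, adjusted p = 0.0184 and 0.0197). ADY3, a protein of spore-wall assembly, fell by 0.80 ± 0.20 and UFD2, which lengthens ubiquitin chains, fell by 0.61 ± 0.17 (limma, adjusted p = 0.0365 and 0.0487). YOR192C-C, YIL060W and YHR145C had nearly the same values in every library, 108 to 115 normalized counts in 2 ADPRC libraries, 66.9 to 68.4 in replicate 2 and 139 to 187 in mock, so they may share reads, and YIL060W overlaps YIL059C. YCR018C-A had 157, 107 and 175 normalized counts after ADPRC and 239, 225 and 213 after mock. Without mock replicate 1 or without mock replicate 2 none of these 10 genes, SCEI and COB included, passed the threshold in limma, and without mock replicate 3 only YLR285C-A did. ADY3 and YCR018C-A also missed it without ADPRC replicate 2 (adjusted p = 0.0644 and 0.0942), and COB and YCR018C-A without the unnumbered library.

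Gene lists were then read by function, each beside the 4.83% of all tested genes that were higher and their median log2 change of -0.003. That share differs between fits. Over all genes 338 of 5547 (6.09%) were higher without replicate 2 and 146 of 5461 with the trend with coding length removed. In the YEPD libraries alone 50 of 5547 were. The values depend on scaling: giving every library the same total moved the median of all genes to 0.19, and the same total outside ribosomal DNA frames moved it to -0.13, so list medians are read relative to that. Of the 268 higher genes 87 were in a list and 181 in none.

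Of the cytosolic ribosomal protein genes, 13 of 56 in the small subunit (23.2%) were higher and 0 lower, with a median log2 change of 0.53, and 22 of 81 in the large subunit (27.2%) were higher and 0 lower, with a median of 0.53. Under the scalings tried the medians were 0.37 to 0.73 for the small and 0.41 to 0.73 for the large subunit. Replicate 2 had the largest values: the small-subunit medians were 0.25, 1.11 and 0.19 in the 3 ADPRC libraries and the large-subunit medians 0.28, 1.08 and 0.22. Without replicate 2, 25 small-subunit and 37 large-subunit genes were higher, beside 6.09% of all genes, with medians of 0.21 and 0.24. With the trend with coding length removed (146 of 5461 over all genes) 9 and 15 were higher, with medians of 0.29 and 0.29. In the YEPD libraries alone (50 of 5547 over all genes) 4 and 4 were. The lengths used are spans with introns, so a gene with introns was treated as longer than its coding sequence. How many members of each list have introns was not counted, so length-removed medians are not directly comparable between lists. RPS16B rose by 1.31 and RPS28A by 1.31, while among large-subunit genes RPL20A rose by 1.30 and RPL6B by 1.28 on the log2 scale.

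Most yeast ribosomal proteins are encoded by a pair of near-identical genes. Of 59 such pairs 7 had both copies higher, 16 had 1 copy higher and 36 had none, and the log2 changes of the copies differed by a median of 0.18. RPL20A rose by 1.30 ± 0.12 (limma, adjusted p = 4.49e-05), while RPL20B had a log2 change of 0.40 ± 0.15 (limma, adjusted p = 0.12). RPL21A rose by 1.18 while RPL21B had a change of 0.37, which missed the threshold, and RPS16B and RPS16A rose by 1.31 and 0.69. The differences between copies were not tested, and values of near-identical copies are uncertain, since it is not given how reads with several positions were counted.

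Nuclear genes of mitochondrial translation and respiration were next. Of the mitochondrial ribosome's 77 tested protein genes, 12 (15.6%) were called higher and 0 lower, with a median of 0.27, and MRPL31, of the large subunit, rose by 1.28 ± 0.18 (limma, adjusted p = 0.000915). Of 32 nuclear genes for cytochrome c oxidase and its assembly 6 were higher, with a median of 0.36. They were COX9, COX5A (0.91), the assembly factors COX16 (1.09), PET117 (1.13) and CMC2 (1.21) and the copper chaperone SCO1 (0.67). Of 23 ATP synthase genes 3 were higher (ATP19, ATP15 at 0.79 and ATP16 at 0.65), with a median of 0.31. In the cytochrome bc1 complex 0 of 14 genes passed the threshold, with a median of 0.19, 9 positive and 5 negative changes and a highest change of 1.15. Its genes of highest mean count, COR1 and QCR2, had log2 changes of -0.19 ± 0.10 and -0.14 ± 0.11. Of 11 coenzyme Q genes COQ10 alone was higher. Of 31 import genes 5 were higher, the receptor TOM20 (0.91), TOM5 (0.72), the channel protein TIM17 (0.96), TIM44 (0.69) and PAM18 (0.71), with a median of 0.30.

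Without replicate 2, where 6.09% of all genes were higher, these counts were 9 of 77 mitochondrial ribosomal protein genes and 4 of 32 oxidase genes. They were 3 of 23 for ATP synthase and 8 of 31 for import. The medians were 0.16, 0.12, 0.17 and 0.16 in that order. Once the trend with coding length was removed the same lists had 2, 1, 1 and 4 higher genes, beside 146 of 5461 over all genes. Their medians were then -0.03, 0.03, 0.03 and 0.08.

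**Figure D4:**
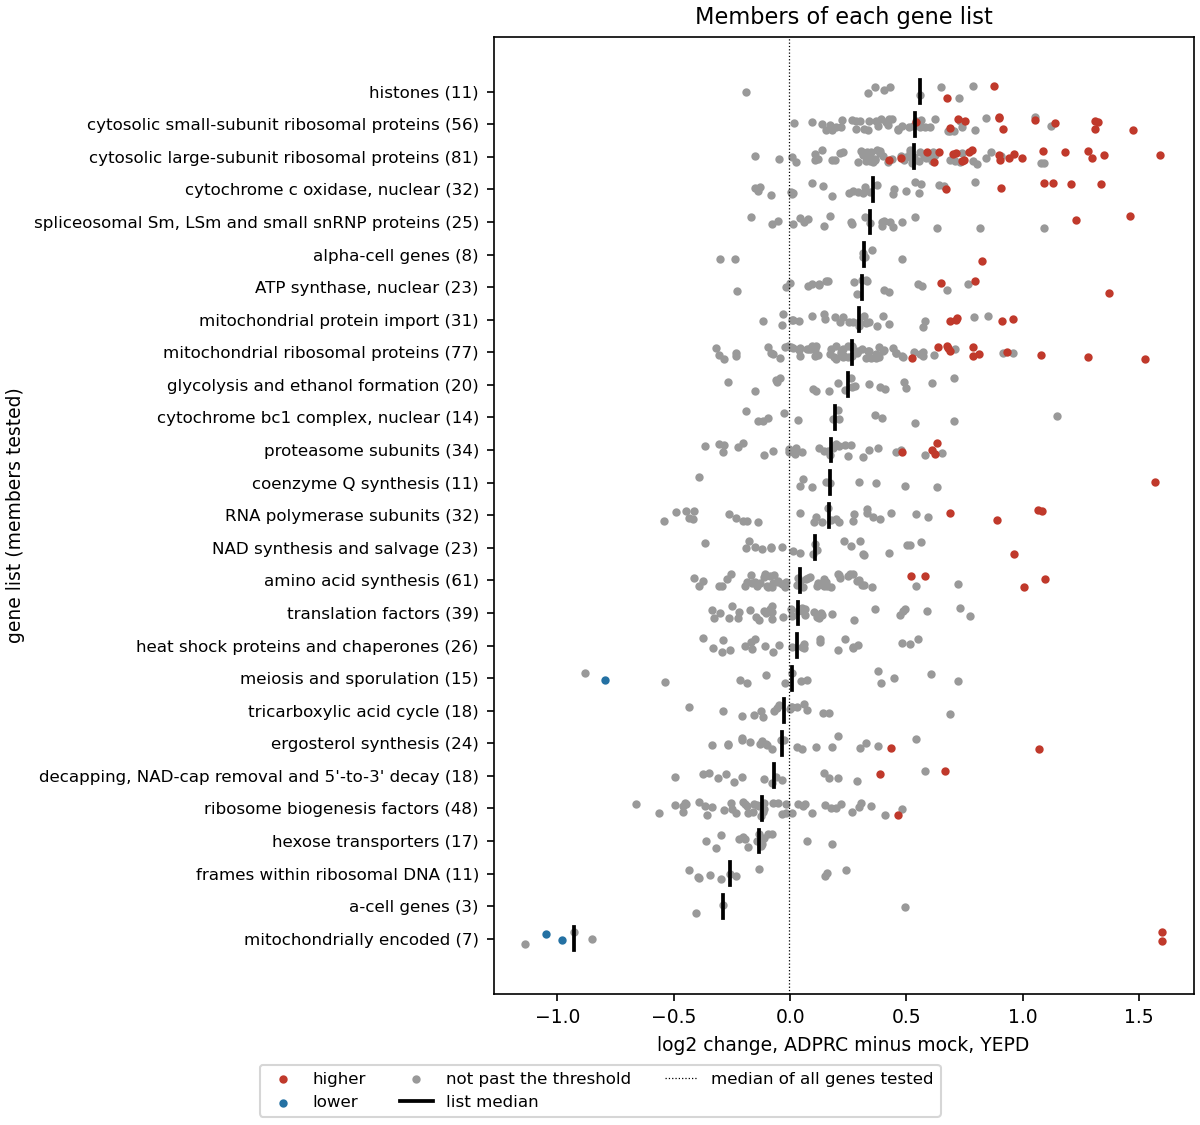
Log2 change, ADPRC minus mock, of each tested member of each gene list with at least 3 members tested (number in parentheses), with members that passed the threshold in colour, the list median as a bar and the median of all genes tested as a dotted line. Histones and cytosolic ribosomal proteins have the highest medians (0.53 to 0.56), and the mitochondrially encoded genes split, with COX2 and OLI1 at 1.60 and the other 5 between -1.14 and -0.85.

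Histones, spliceosomal proteins, RNA polymerases and the proteasome gave a few higher genes each. Histones had 2 of 11 higher, HHT2 (histone H3) at 2033, 1906 and 1444 normalized counts after ADPRC and 866, 868 and 1199 after mock, and HTB2 (histone H2B), which rose by 0.67 ± 0.11 (limma, adjusted p = 0.00301). The histone median was 0.56, and 0.20 without replicate 2, where 3 of 11 were higher, beside 6.09% of all genes. With the trend with coding length removed 0 histones were called, with a median of 0.13 (HHT2 and HTB2 at adjusted p = 0.051 and 0.0774 in limma), and 0 in the YEPD libraries alone. Of 25 spliceosomal proteins DIB1 and LSM6, a ring protein of the U6 particle and of decay, were higher (LSM6 by 1.23 ± 0.18). Of 32 RNA polymerase subunits 4 were higher, RPA12 of polymerase I at 1.08, RPC10 and RPO26, shared by all polymerases, at 1.07 and 0.69, and RPB9 of polymerase II at 0.89. Of 34 proteasome genes, 4 were higher, SEM1 (0.63), RPN10 (0.62), PRE6 (0.61) and PRE4 (0.48). With the length trend removed (146 of 5461 over all genes) 2 spliceosomal, 1 polymerase and 1 proteasome gene were higher. In the YEPD libraries alone (50 of 5547 over all genes) these counts were 1, 0 and 0.

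The genes of NAD metabolism and of cap removal were read next. Of 23 NAD synthesis and salvage genes 1 was higher (4.35%, beside 4.83% of all genes), with a median of 0.11. This was BNA6, which makes nicotinic acid mononucleotide from quinolinate, at 180, 322 and 221 normalized counts after ADPRC and 110, 113 and 137 after mock, a rise of 0.96 ± 0.19 (limma, adjusted p = 0.00798). QNS1, the last enzyme of NAD synthesis, had 697, 457 and 721 after ADPRC and 420, 430 and 447 after mock. Its groups did not overlap and its change of 0.50 ± 0.17 missed the threshold (limma, adjusted p = 0.0986). Without replicate 2 the change was 0.71 (limma, adjusted p = 0.000286, with 2 ADPRC libraries). Of 18 decapping and decay genes 2 were higher (11.1%), with a median of -0.07 and 1 higher once the length trend was removed. They were the decapping cofactor DCP1 (0.66 ± 0.14) and SCD6 (0.39 ± 0.10), a repressor of translation.

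Among the enzymes that remove NAD caps or degrade RNA from the 5′ end, none passed the threshold. NPY1 had 173, 195 and 184 normalized counts after ADPRC and 169, 158 and 164 after mock, a log2 change of 0.17 ± 0.12 (limma, adjusted p = 0.384). RAI1 had 71.2, 64.0 and 67.9 after ADPRC and 87.0, 88.3 and 77.5 after mock, a change of -0.31 ± 0.17 (limma, adjusted p = 0.23). DXO1 had a change of -0.06 ± 0.25 and the exonuclease XRN1 one of -0.49 ± 0.19 (limma, adjusted p = 0.897 and 0.12). QNS1, NPY1, RAI1, DXO1 and XRN1 were named here for their function and with their values seen.

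Several abundant classes had no call with all libraries. Of 39 translation factors, 20 glycolytic genes, 18 genes of the tricarboxylic acid cycle, 26 chaperones and 17 hexose transporters 0 were called higher or lower, with medians of 0.03, 0.25, -0.02, 0.03 and -0.13. Without replicate 2 the chaperones had 5 of 26 lower, beside 1.3% of all genes, and 1 higher, with a median of -0.12. In that fit 2 glycolytic genes, 1 translation factor and 1 gene of the tricarboxylic acid cycle were higher. Apart from the glycolytic genes, these medians are within the shift that scaling gives, and their sign changed with the scaling, as did that of the NAD, decapping, amino acid, ergosterol and ribosome biogenesis lists. TDH3, a glyceraldehyde-3-phosphate dehydrogenase, had 60408, 159450 and 61691 normalized counts after ADPRC and 60705, 65089 and 67482 after mock. The glycolytic median was above 0 in replicate 2 and not in the others, with -0.06, 0.74 and -0.04 in the 3 ADPRC libraries. TEF1 and TEF2, identical genes of the elongation factor eEF1A, had log2 changes of 0.49 ± 0.24 each (limma, adjusted p = 0.198 and 0.195), and of 0.13 and 0.14 without replicate 2.

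In amino acid synthesis 4 of 61 genes were higher, with a median of 0.04. HIS2, the histidinol phosphatase, had 261, 317 and 288 normalized counts after ADPRC and 133, 136 and 133 after mock, a rise of 1.10 ± 0.11 (limma, adjusted p = 9.19e-05). TRP1, of tryptophan synthesis, rose by 1.00 ± 0.18, PRO2 by 0.58 and THR1 by 0.52. In ergosterol synthesis 2 of 24 were higher, the sterol isomerase ERG2 (1.07 ± 0.15) and phosphomevalonate kinase ERG8 (0.43 ± 0.10). Of 48 ribosome biogenesis factors NOP15 alone was higher (0.47 ± 0.12), with a list median of -0.12.

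Calls of list members depended on single libraries. Of the 90 list members called in either direction, 13 missed the threshold without the unnumbered library, 9 without ADPRC replicate 2 and 0 without ADPRC replicate 3, at adjusted p = 0.0503 to 0.11 in limma. Those lost without replicate 2 were RPS7B, RPL29, MRPL11, MRPL27, IMG2, PET123, COX16, SCO1 and ADY3, and among those lost without the unnumbered library were CMC2, PAM18, SCD6, ERG8, NOP15 and THR1. Without mock replicate 1, 2 or 3 the call was lost by 51, 46 or 30 of the 90, at adjusted p = 0.0509 to 0.199. They included BNA6, DCP1, SEM1, PRE4, PRE6, RPB9, RPC10, RPO26, TIM17, TIM44, TOM5, TOM20, RPL21A and RPS16A.

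Of 8 alpha-cell genes the pheromone gene MF(ALPHA)2 alone was higher, at 1002, 847 and 859 normalized counts after ADPRC and 504, 551 and 470 after mock (0.83 ± 0.12, limma, adjusted p = 0.00126), and of 15 meiosis genes ADY3 alone was lower. With the length trend removed MF(ALPHA)2 and ADY3 both missed the threshold (limma, adjusted p = 0.202 and 0.0621). Of the 3 a-cell genes tested 0 were called. The 11 frames within ribosomal DNA had 0 called, with a median of -0.26 that was -0.06 without replicate 2.

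A separate set of genes was high in replicate 2 alone. These were chosen for that gap, among genes with a mean of at least 100, and are a description with no test. RPS20, a small-subunit ribosomal protein, had 4248, 20589 and 4166 normalized counts after ADPRC and 4265, 4065 and 4040 after mock. CCW12, an abundant cell-wall mannoprotein, had 21918, 91645 and 19227 after ADPRC and 18416, 20603 and 22249 after mock. PMP2, a proteolipid of the plasma-membrane proton pump, had 257, 996 and 242 after ADPRC and 205, 235 and 288 after mock. In all of these the unnumbered library and replicate 3 lay near or within the mock range. The same held for HOR7, DIA1, RPL10, TPI1 (triosephosphate isomerase) and YDR524C-B, whose log2 changes without replicate 2 were 0.11, 0.05, 0.20, -0.00 and -0.03. COF1, the actin-severing protein cofilin, had 846, 3054 and 848 after ADPRC and 528, 556 and 570 after mock, so all ADPRC libraries were above mock. It missed the threshold with replicate 2 (limma, adjusted p = 0.0558). Without that library it passed at a change of 0.62 (limma, adjusted p = 1.78e-05, with 2 ADPRC libraries). RPL30 had 1082, 3782 and 1098 after ADPRC and 944, 890 and 1006 after mock.

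Change after ADPRC moved with coding length, here the span of the gene with any introns, in all ADPRC libraries. Across the genes with a length in RefSeq, Spearman's rho between log2 change and coding length was -0.45, -0.72 and -0.35 in the 3 ADPRC libraries and -0.68 for their mean, given as a description since these points share the mock libraries. In 5 bins from 78 to 696, 699 to 1062, 1063 to 1500, 1503 to 2142 and 2144 to 14733 bases, the median change was 0.36, 0.18, 0.01, -0.12 and -0.30. The bins from shortest to longest held 141, 93, 29, 5 and 0 of the higher genes and 4, 1, 2, 5 and 15 of the lower genes. The median coding length was 677 bases among the higher genes and 2295 among the lower, against 1269 over all genes with a length. With that trend removed 127 of the 268 higher genes and 4 of the lower genes were still called. COX2, OLI1, COQ10, MRPS12, DFR1 and SEC22 kept the call at changes of 1.35, 1.15, 1.27, 1.15, 1.12 and 1.03, while RPL37B, RPS14A and QRI5 did not (adjusted p = 0.0658, 0.0658 and 0.2). The part of coding length, and of the ribosomal DNA share of reads, in these changes was not tested further.

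**Figure D5:**
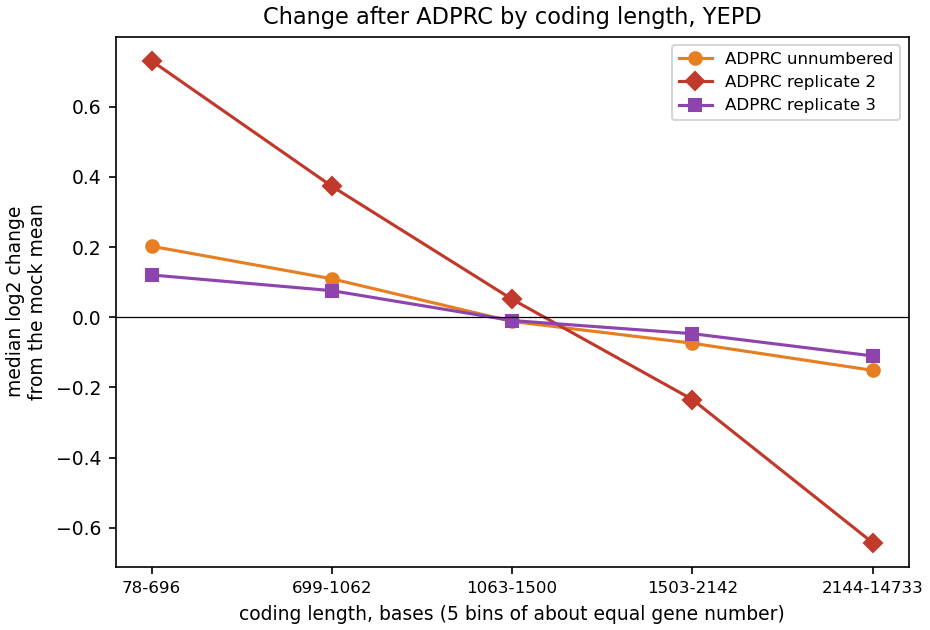
Median log2 change from the mock mean (vertical) in each ADPRC library, by 5 bins of coding length of about equal gene number (horizontal, bases). All 3 lines fall with length, from 0.73 to -0.64 in replicate 2, from 0.20 to -0.15 in the unnumbered library and from 0.12 to -0.11 in replicate 3.

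The YEPD changes were last set beside those in minimal medium, which came from other libraries but from the same fit. Both sets of calls share 1 estimate of the spread per gene, so they are not independent. In minimal medium 782 of the same genes were higher after ADPRC (14.1%) and 803 lower (14.5%). Of the 268 genes higher in YEPD, 196 were also called higher in minimal medium, 256 had the same sign there and 0 were called in the opposite direction, with a median log2 change of 0.66. Of the 29 lower in YEPD, 21 were called lower in minimal medium and 29 had the same sign. The share of all tested genes with the same sign in both media was not counted. The log2 change of COX2 was 1.60 in YEPD and 1.65 in minimal medium, and that of DIB1 was 1.46 in YEPD and 1.70 in minimal medium. For MRPS12 it was 1.52 in YEPD and 0.66 in minimal medium. TAF9 and TFC1 passed the threshold in YEPD, at 1.47 and -0.75, but not in minimal medium, at 0.39 and -0.03.

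The difference of the ADPRC effect, YEPD minus minimal medium, passed the threshold for 0 genes in limma, with 462 genes at an unadjusted p under 0.05, for 0 genes in edgeR and for 9 in DESeq2. Without YEPD ADPRC replicate 2 it passed for 1039 of 5547 genes, 551 with a more positive and 488 with a more negative change in YEPD. The number of genes past the threshold therefore rests on that library. Among the 1039 were 7 of the 20 largest increases, but these were chosen by the YEPD change that enters the difference. That count is therefore no support. With all libraries the differences were 0.86 ± 0.20 for MRPS12 and 1.07 ± 0.29 for TAF9 (limma, adjusted p = 0.29 and 0.38).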

How the data were processed

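The deposited table holds 1 column for each of 12 libraries and no column of other samples (0). Its values are a signal: the authors divided read counts by 1 factor per library, as checked on the values, of which 100% were whole multiples of the library's step (tolerance 0.01 reads). Per the submitters' processing notes FastQC, Trimmomatic, Bowtie, HTSeq and DESeq were used; versions, build, annotation, use of strand and treatment of multiply mapped reads: not given in the sources used here. For YEPD mock replicate 2 the step was 1.00, and its values were taken as reads with the others. RefSeq R64 matched 5923 identifiers and left 684 unmatched; it gave names, overlaps and coding lengths (spans with introns, 96.9% multiples of 3). No genome or sequence table was used, so no sequence is shown.

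After a log2(value + 1) transform, genes that averaged 10 or more over the 6 YEPD libraries were fitted with limma 3.58.1 in R 4.3.3 (trend, robust), with 4 group means over 12 libraries. P-values are two-sided and Benjamini-Hochberg adjusted over all 5547 genes, with calls at 0.05. Changes are on the log2(value + 1) scale, which understates those of low genes, and ± after them is limma's standard error with n = 3 libraries per group. edgeR 4.0.16 and DESeq2 1.42.0 were run on recovered reads as alternatives, and the limma fit was tested on simulated data. The comparison, its genes and the gene lists were chosen with earlier results of these data known. Named genes were the 20 largest increases and 10 largest decreases past the threshold without overlap, up to 4 examples per list, and the 10 largest gaps of ADPRC replicate 2; further list members past the threshold are also named. Alternatives varied pseudocount, filter, scaling, variance model, libraries, coding length and replicate block.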

Additional observations from a re-analysis of the deposited data

How the results depend on the processing

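Against 268 higher and 29 lower genes, pseudocount 8, a mean of at least 50, no filter and TMM scaling kept each count within 1.5 times, and no called change of a named gene reversed under the alternatives run, though some list medians changed sign. The same total per library gave 2 lower genes, the same total outside ribosomal DNA frames 160 higher and 3 lower, and quantile normalization 57 lower. YEPD libraries alone gave 50 higher and 0 lower, no variance trend 14 lower, library weights 483 higher and 219 lower, and removal of the length trend 146 higher. Lower genes numbered 59 with edgeR and 105 with DESeq2. Leaving out 1 YEPD library gave 107 to 612 higher and 0 to 492 lower genes. The difference between media passed for 2 genes without a variance trend, 1110 with library weights, 9 with DESeq2 and 0 to 1039 when 1 library was left out. The fit with a replicate block left out the unnumbered ADPRC library and mock replicate 1, so 2 YEPD libraries per group remained. It gave 26 higher and 0 lower genes, and the parts of the block and of fewer libraries cannot be told apart. Deviations of same-numbered libraries from their group means had r = -0.0358 and -0.142 in YEPD and -0.00893, -0.0681 and -0.0334 in minimal medium. With 3 libraries per group such r values are constrained, so they do not decide whether the numbers pair libraries. The media difference under edgeR and DESeq2 was added after the data were seen. The cause of these shifts was not tested. Depth limits genes near 10 normalized counts, a few times the 3-read limit.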
